A study of Homo sapiens with 4 samples.

Results

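MEST, PEG3, PEG10, DLK1, IGF2, CDKN1C, NDN, GRB10, PLAGL1 and SGCE are imprinted genes, and these 10 genes were followed among the 29123 gene names on a whole-genome expression array. They were matched by name, and 13 probes carried their names. The set was chosen by the measured values of MEST, which lay below Ctrl in GALNT3 KO cells and above Ctrl in the clones labelled GALNT3/T6 KO. MEST is therefore described without a test, and the other 9 genes were tested with all genes on the array. All 10 genes and all 13 probes passed the filter on dim probes, which left 27225 genes for the test.

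The study targeted GALNT3 and GALNT6, enzymes that start mucin-type O-glycosylation, in A2780s, an established human epithelial ovarian cancer cell line. Dual-colour Agilent arrays carried RNA of 2 GALNT3 KO clones made with CRISPR/Cas9 and of 2 GALNT3/T6 KO clones, in which GALNT6 was in addition targeted by lentiviral shRNA with puromycin selection. Each KO clone was hybridized on its own array against RNA of mock-transfected Ctrl cells, with Ctrl in Cy3 and KO in Cy5 on all 4 arrays by the labels. Each value is the log2 of KO over Ctrl, a log2 ratio, so that 1 is a doubling. The replicates are clones, the labels do not tie a GALNT3/T6 KO clone to a GALNT3 KO clone, and both groups share the Ctrl RNA. Transduction and its selection cannot be told apart from the targeting of GALNT6 here. By the paper's methods the GALNT3 KO clones also went through puromycin selection and isolation of single colonies. Where Ctrl did not share these steps, they cannot be told apart from the targeting of GALNT3.

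On the GALNT3 KO arrays neither channel read GALNT3 well above background, so it checked nothing there. In the clones labelled GALNT3/T6 KO its log2 ratio was 4.80 and 5.08, which goes against the label if RNA follows the knockout. The paper checked its clones by protein on Western blots and reports GALNT3 protein lost in GALNT3 KO clones, whereas the arrays read RNA. The group is named by its label throughout. GALNT6 stood at -0.47 and -0.38 in GALNT3 KO and at -0.66 and -0.69 in the clones labelled GALNT3/T6 KO. Its RNA was thus below Ctrl in both groups, which differed by -0.25 (adjusted p = 0.212 from limma). For GALNT6 protein, the paper reports an increase in GALNT3 KO clones and complete loss in the GALNT3/T6 KO clones. Between 86.9% and 93.8% of the spots were marked as well above background in a channel and 0 were saturated. With 4 arrays the precision is limited by their number. All 9 epithelial and ovarian carcinoma markers looked up were well above background in Ctrl on all 4 arrays, but so were 7 of 8 markers of other cells, so this flag does not tell cell types apart. Whether cells of another kind moved with the groups was not tested.

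Imprinted genes are transcribed mainly from the maternal or the paternal copy. The choice is set by DNA methylation laid down in the germ line at imprinting control regions, and in the embryo it is kept there by DNMT1, by the zinc finger proteins ZFP57 and ZNF445 and by their partner TRIM28. Many imprinted genes lie in clusters and act on growth: IGF2 is a growth factor, whereas CDKN1C and GRB10 restrain proliferation and insulin or IGF signalling. The arrays measured RNA, and neither methylation nor the parental allele was read. In these bulk cultures fewer cells transcribing a gene and less RNA per cell cannot be told apart.

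Promoter sequences are shown for the members held in the RefSeq promoter table used here (GRCh38.p14), because the methylation that sets imprints falls on CpG dinucleotides. Whether a promoter shown lies in an imprinting control region was not tested. MEST, GRB10, PLAGL1 and NDN have 16 promoters of 300 bases in it, 5 each for MEST, GRB10 and PLAGL1 and 1 for NDN. They were searched on both strands for TGCCGC, which reads GCGGCA on the opposite strand and is the hexamer that ZFP57 recognises when its CpG is methylated. Of all 35116 promoters in the table, 16.7% held a match and 2.75% held at least 2. A match describes letters only and is not a bound site. Capitals mark the matches in the following 5 promoters, which were taken from those with a match and are all written 5′ to 3′.
MEST promoter, chr7:130491835-130492134, plus strand: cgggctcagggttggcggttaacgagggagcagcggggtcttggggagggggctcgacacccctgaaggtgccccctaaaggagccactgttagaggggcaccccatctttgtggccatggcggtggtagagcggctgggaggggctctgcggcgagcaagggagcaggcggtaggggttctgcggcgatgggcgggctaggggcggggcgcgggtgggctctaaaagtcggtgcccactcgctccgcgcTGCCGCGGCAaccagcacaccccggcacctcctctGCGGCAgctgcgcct
MEST upstream promoter, chr7:130486097-130486396, plus strand: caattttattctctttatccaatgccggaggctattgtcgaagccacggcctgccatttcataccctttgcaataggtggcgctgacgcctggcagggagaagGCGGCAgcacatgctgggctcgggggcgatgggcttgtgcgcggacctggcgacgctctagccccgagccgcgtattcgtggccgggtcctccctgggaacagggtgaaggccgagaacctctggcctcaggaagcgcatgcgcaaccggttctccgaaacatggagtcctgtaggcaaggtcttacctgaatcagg
GRB10 promoter, chr7:50793404-50793703, minus strand: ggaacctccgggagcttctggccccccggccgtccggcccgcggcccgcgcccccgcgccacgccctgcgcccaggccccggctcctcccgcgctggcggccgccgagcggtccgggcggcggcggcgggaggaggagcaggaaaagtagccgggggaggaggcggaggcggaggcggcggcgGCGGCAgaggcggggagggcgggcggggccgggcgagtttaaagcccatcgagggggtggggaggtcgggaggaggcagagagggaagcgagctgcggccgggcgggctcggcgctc
PLAGL1 promoter, chr6:144008210-144008509, minus strand: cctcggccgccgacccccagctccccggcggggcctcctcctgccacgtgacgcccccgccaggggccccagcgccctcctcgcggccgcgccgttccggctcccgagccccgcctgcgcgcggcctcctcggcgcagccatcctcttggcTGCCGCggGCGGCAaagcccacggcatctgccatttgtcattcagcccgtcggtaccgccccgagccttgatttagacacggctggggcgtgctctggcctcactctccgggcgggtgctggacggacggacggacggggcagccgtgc
NDN promoter, chr15:23687256-23687555, minus strand: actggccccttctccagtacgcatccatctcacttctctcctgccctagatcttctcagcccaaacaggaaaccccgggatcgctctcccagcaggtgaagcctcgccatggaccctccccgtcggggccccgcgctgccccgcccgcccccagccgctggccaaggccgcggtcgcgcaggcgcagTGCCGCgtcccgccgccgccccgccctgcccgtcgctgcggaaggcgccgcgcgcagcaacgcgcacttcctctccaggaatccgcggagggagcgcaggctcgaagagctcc

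The first MEST promoter held 25 CpG and 3 matches, a number that 0.441% of all promoters reached. Of these 3 matches, 2 overlapped within the stretch TGCCGCGGCA, 1 on each strand. The upstream MEST promoter held 22 CpG and 1 match, and 4 of the 5 MEST promoters held at least 1. These 4 do not hold separate matches, because the promoters overlap. The promoter that starts at 130485925, not shown, shared the match of the upstream promoter. The promoter that starts at 130491808, not shown, shared the stretch TGCCGCGGCA with the first. For GRB10 the promoter shown had 44 CpG and 1 match, the only match among its 5 promoters. The GRB10 promoters that start at 50792825 and 50782847, not shown, had 49 and 24 CpG and 0 matches. The PLAGL1 promoter shown had 39 CpG and 2 matches, and its other 4 promoters held none. NDN had 35 CpG and 1 match, where the median over all promoters was 14 CpG. The MEST probe lies near the end of the gene and its 4 listed RefSeq transcripts share it, so the values below do not tell the MEST promoters apart. Exon and UTR boundaries of hg19 were not used here.

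MEST, which encodes a hydrolase-like protein and is expressed from the paternal allele, was read by 1 probe at 130145648 to 130145707 on chromosome 7 of hg19. Its log2 ratio was -4.10 and -4.23 in the GALNT3 KO clones. In the clones labelled GALNT3/T6 KO it was 1.48 for replicate 1 and 3.99 for replicate 2. The means were -4.16 (SD 0.09, n = 2), 17.9-fold below Ctrl, and 2.73 (SD 1.78, n = 2), 6.66-fold above Ctrl. The groups did not overlap and lay 6.90 apart on the log2 scale. The GALNT3 KO clones were close together, whereas the other clones differed by more than 2 log2 units in the size of the rise, so that the mean of that group would be 1.48 or 3.99 with either array alone. These are the values by which the genes were picked, and no test was made of them.

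Both channels were read for MEST to see which of them moved. After scaling of the arrays, the log2 signal of the KO channel was 11.13 and 10.87 in GALNT3 KO and 16.64 and 18.15 in the clones labelled GALNT3/T6 KO. The Ctrl channel, which held the same kind of RNA on all arrays, gave 15.23, 15.09, 15.16 and 14.16. The last array, GALNT3/T6 KO replicate 2, thus had the lowest Ctrl and the highest KO signal. The Ctrl range of 1.07 log2 units compares with a median range of 0.38 over all genes tested and a 95th percentile of 1.18. Between the groups the KO channel differed by 6.39 and the Ctrl channel by -0.50, so most of the difference in MEST lay in the KO channel. MEST was well above background in both channels on all 4 arrays.

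**Figure D1:**
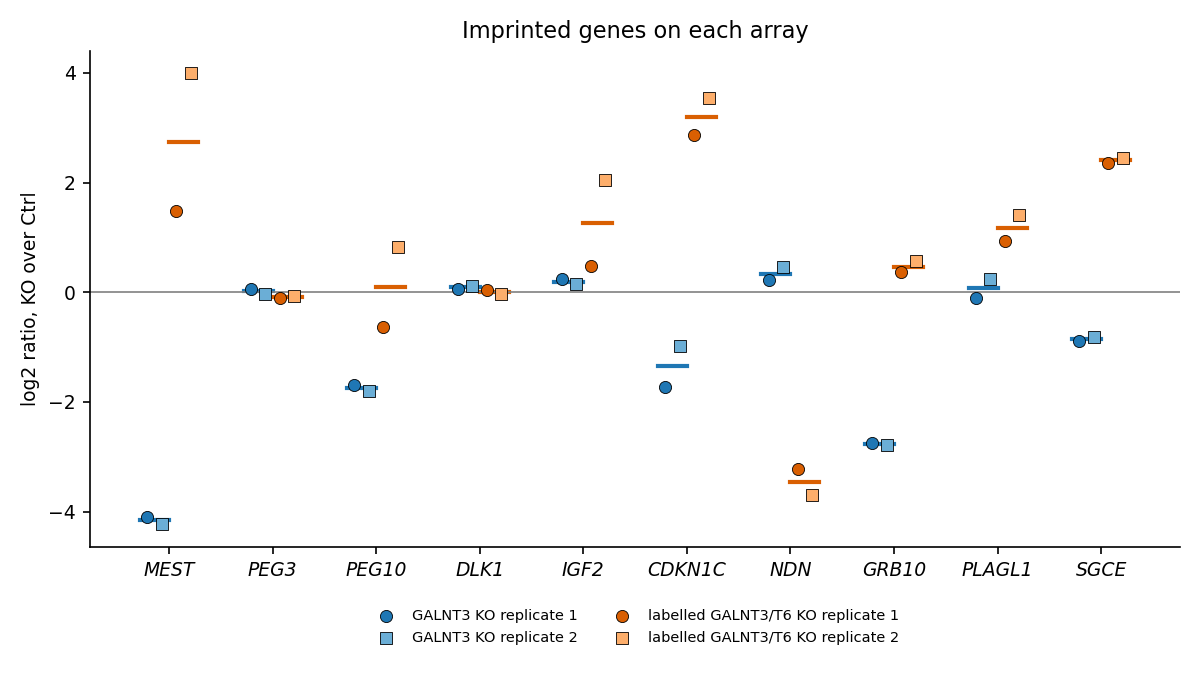
Log2 ratio of KO over Ctrl (vertical axis) for the 10 imprinted genes on each of the 4 arrays, with a bar at the mean of each group. MEST runs from -4.23 to 3.99, CDKN1C, GRB10 and SGCE lie below 0 on the GALNT3 KO arrays and above 0 in the clones labelled GALNT3/T6 KO, and NDN lies the other way round.

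Of the 9 tested members, 4 were called lower and 0 higher in GALNT3 KO than in Ctrl, at an adjusted p of at most 0.05 from limma over all genes tested. Over all genes tested 11% were called in this comparison, 4.69% higher and 6.34% lower. The median of the 9 members was 0.015, and that of all genes was 0.023. In the clones labelled GALNT3/T6 KO, 5 of the 9 were called higher and 1 lower, where 47.8% of all genes were called, 24.8% higher and 23.1% lower. Their median was 0.46 against 0.032 over all genes. Between the groups, 4 members were called higher and 1 lower in the clones labelled GALNT3/T6 KO than in GALNT3 KO, against 23.7% of all genes, 11.8% higher and 11.8% lower. The median difference was 1.11 over the members and -0.0037 over all genes. Without GALNT3 KO replicate 1, limma called 0 genes of the whole array in GALNT3 KO (lowest adjusted p = 0.282), while 1166 higher and 1556 lower genes met an unadjusted p of at most 0.05 with a change of at least 1.5-fold. Without replicate 2 it also called 0 genes (lowest adjusted p = 0.34), with 660 higher and 1164 lower genes by that looser criterion. None of the 4 members therefore kept its call in GALNT3 KO without either array. Wherever an array is left out here and below, its group holds 1 array, which is assumed to vary like the clones of the other group, the only source of the spread in that fit. With arrays centred on their median in place of loess, 545 genes were called higher and 1777 lower in GALNT3 KO, against 1276 and 1726.

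CDKN1C, GRB10, PLAGL1 and NDN encode restrainers of growth. CDKN1C encodes the cyclin-dependent kinase inhibitor p57 and is expressed from the maternal allele. It stood at -1.72 and -0.98 in GALNT3 KO and at 2.86 and 3.55 in the clones labelled GALNT3/T6 KO. Both GALNT3 KO arrays were thus below Ctrl, and both others were above it without overlap. The mean was -1.35 in GALNT3 KO (SE 0.25, adjusted p = 0.0425 from limma), 2.56-fold below Ctrl. It was 3.20 in the clones labelled GALNT3/T6 KO (adjusted p = 0.000931), 9.21-fold above Ctrl. The difference of 4.56 between the groups had an adjusted p of 0.00188 from limma. The call in GALNT3 KO was lost in 7 of 14 alternatives, with an adjusted p of 0.0994 on Agilent's own log ratio and 0.0523 after median centring, in a range of 0.000565 to 0.412. Without GALNT3 KO replicate 1 it was lost at a log2 ratio of -0.98 (adjusted p = 0.289), and without replicate 2 at -1.72 (adjusted p = 0.412, limma).

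GRB10 encodes an adaptor that binds the insulin and IGF1 receptors and dampens their signalling. Its brighter probe, at 50657813 to 50657872 on chromosome 7 of hg19, gave -2.75 and -2.78 in GALNT3 KO and 0.37 and 0.56 in the clones labelled GALNT3/T6 KO. The GALNT3 KO clones differed by little from each other and lay far below Ctrl, while the other clones lay slightly above it. The mean was -2.77 (SE 0.09, adjusted p = 0.00478 from limma), 6.80-fold below Ctrl. It was 0.46 in the clones labelled GALNT3/T6 KO (adjusted p = 0.0141), 1.38-fold above Ctrl. The groups differed by 3.23 (adjusted p = 0.000464 from limma). The small rise was lost in 8 of 14 alternatives, among them median centring at 0.22 (adjusted p = 0.288, range 0.00214 to 0.291) and GALNT3/T6 KO replicate 2 left out at 0.37 (adjusted p = 0.0507), as well as either GALNT3 KO array left out (adjusted p = 0.0601). The fall was lost without GALNT3 KO replicate 1 at -2.78 (adjusted p = 0.282) and without replicate 2 at -2.75 (adjusted p = 0.34), the alternatives spanning 1.05e-06 to 0.34.

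PLAGL1 encodes a zinc finger transcription factor that can arrest the cell cycle and is expressed from the paternal allele. Its brighter probe gave -0.10 and 0.24 in GALNT3 KO and 0.94 and 1.41 in the clones labelled GALNT3/T6 KO. In GALNT3 KO the clones lay on either side of Ctrl, and the mean, 0.07, was not called (limma, adjusted p = 0.772). The other clones were both above Ctrl, with a mean of 1.18 (SE 0.16, adjusted p = 0.00454), 2.26-fold. The difference of 1.11 was called (adjusted p = 0.0263 from limma), but not after median centring (adjusted p = 0.0662) nor without GALNT3 KO replicate 1 (0.94, adjusted p = 0.195) or replicate 2 (1.28, adjusted p = 0.123), in a range of 0.000697 to 0.223.

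NDN encodes necdin, a MAGE family protein that restrains the growth of neurons and is expressed from the paternal allele. It was the member called lower in the clones labelled GALNT3/T6 KO. Its log2 ratio was 0.22 and 0.46 in GALNT3 KO and -3.23 and -3.70 in the clones labelled GALNT3/T6 KO. The latter clones were both far below Ctrl, at -3.46 on average (SE 0.14, limma adjusted p = 2e-04), 11.0-fold lower. In GALNT3 KO the mean was 0.34 (limma, adjusted p = 0.171). That value was called higher in 3 of 14 alternatives, with the group's own arrays alone and without GALNT3/T6 KO replicate 1 (adjusted p = 0.0353 for each) or replicate 2 (adjusted p = 0.0351), in a range of 0.0351 to 0.739. The groups differed by -3.80 (adjusted p = 0.000808 from limma). The Ctrl signal of NDN stayed within 0.26 log2 units over the 4 arrays, while the KO channel differed by -3.83 between the groups.

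IGF2 and DLK1 encode secreted or membrane-bound signals. IGF2 encodes an insulin-like growth factor that acts through IGF1R, and its ratio was 0.23 and 0.15 in GALNT3 KO. In the other group it was 0.48 for replicate 1 and 2.05 for replicate 2. All 4 values lay above Ctrl, and the high mean of that group rested mainly on replicate 2. The mean was 1.27 there (SE 0.37, adjusted p = 0.0466 from limma), 2.40-fold, and 0.19 in GALNT3 KO (adjusted p = 0.735). The call was lost in 8 of 14 alternatives, for instance with the mean of both IGF2 probes at 0.55 (adjusted p = 0.0616) and without either GALNT3 KO array (adjusted p = 0.134), in a range of 3.79e-06 to 0.469. With the arrays of replicate 1 or replicate 2 alone on the GALNT3/T6 KO side the value was 0.48 or 2.05. The groups were not called apart, being 1.08 apart (limma, adjusted p = 0.241), though without GALNT3/T6 KO replicate 1 they were, at 1.87 (adjusted p = 3.74e-05, range 3.74e-05 to 0.564). That p-value took its spread from the GALNT3 KO clones alone (SD 0.06, against 1.12 between the clones labelled GALNT3/T6 KO).

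DLK1 encodes a Notch-family ligand-like protein from the paternal allele. Its ratio was 0.07 and 0.12 in GALNT3 KO and 0.04 and -0.03 in the clones labelled GALNT3/T6 KO. All 4 values lay close to Ctrl, and neither mean was called (0.09, adjusted p = 0.44, and 0.0028, adjusted p = 0.979, limma). PEG3, a zinc finger gene of the paternal allele, was as flat, at 0.06 and -0.03 in GALNT3 KO and -0.10 and -0.07 in the clones labelled GALNT3/T6 KO. Its means of 0.015 and -0.086 had adjusted p-values of 0.906 and 0.412 from limma. On GALNT3 KO replicate 1 the KO channel of PEG3 was not well above background. A value near 0 that was not called does not show that the RNA was equal.

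PEG10 and SGCE are neighbours on chromosome 7, with probes 69.5 kb apart. PEG10, a gene derived from a retrotransposon, gave -1.69 and -1.81 in GALNT3 KO. Under the GALNT3/T6 KO label it gave -0.64 for replicate 1 and 0.83 for replicate 2, so that these clones lay on opposite sides of Ctrl. The fall in GALNT3 KO averaged -1.75 (SE 0.35, limma adjusted p = 0.0483), 3.35-fold, just inside the threshold. It was lost in 7 of 14 alternatives, at -1.81 without GALNT3 KO replicate 1 (adjusted p = 0.296), at -1.69 without replicate 2 (adjusted p = 0.425) and at -1.66 on Agilent's log ratio (adjusted p = 0.0886), in a range of 1.16e-05 to 0.425. The mean of 0.09 in the clones labelled GALNT3/T6 KO was not called (adjusted p = 0.836), and it was 0.83 without replicate 1 (adjusted p = 0.00113) and -0.64 without replicate 2 (adjusted p = 0.00457, range 0.00113 to 0.994). The difference of 1.84 between the groups was not called (adjusted p = 0.0601 from limma), but it was without GALNT3/T6 KO replicate 1 (2.57, adjusted p = 5.57e-06) and without replicate 2 (1.11, adjusted p = 0.000898), in a range of 5.57e-06 to 0.322. These p-values without an array took their spread from the GALNT3 KO clones alone (SD 0.08, against 1.03 between the other clones). On Agilent's log ratio the difference was called at 2.13 (adjusted p = 0.0356).

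SGCE encodes epsilon-sarcoglycan, a membrane protein whose maternal copy is silent. It gave -0.90 and -0.82 in GALNT3 KO and 2.35 and 2.46 in the clones labelled GALNT3/T6 KO. The mean was -0.86 (SE 0.08, adjusted p = 0.0187 from limma), 1.81-fold below Ctrl, and 2.40 (adjusted p = 0.000138), 5.29-fold above it. The groups differed by 3.26 (adjusted p = 0.00042 from limma). Without GALNT3 KO replicate 1 (-0.82, adjusted p = 0.282) or replicate 2 (-0.90, adjusted p = 0.412) the fall was not called, in a range of 0.000461 to 0.412. SGCE and PEG10 are read from a shared imprinted promoter region in opposite directions, yet on GALNT3/T6 KO replicate 1 SGCE stood at 2.35 and PEG10 at -0.64.

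**Figure D2:**
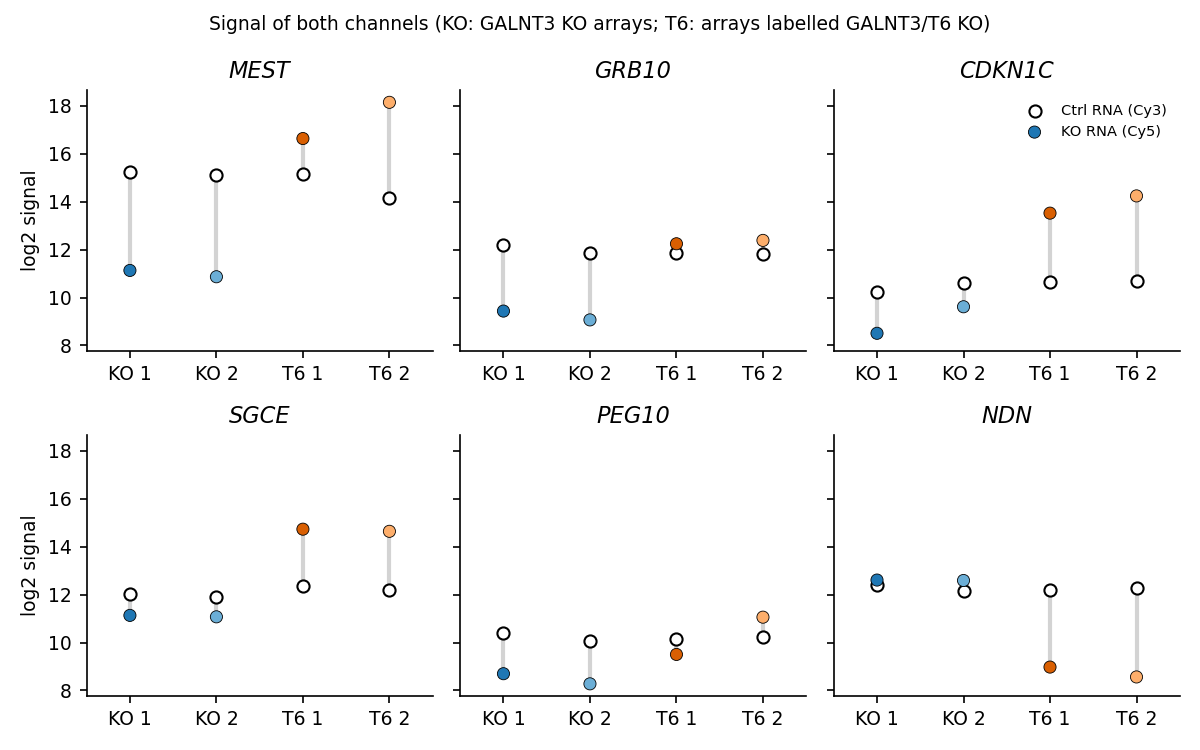
Log2 signal after scaling (vertical axis) of Ctrl RNA (open circles) and KO RNA (filled circles) on the 4 arrays, for 6 members. A grey bar joins the channels of 1 array. The Ctrl circles of a gene stay close together, least so for MEST (from 14.16 to 15.23), and the KO circles move.

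In 3 members a second probe could be set beside the brighter one. The second GRB10 probe, at 50657752 to 50657786 with only 35 of its 60 bases placed, gave -3.45 and -3.20 in GALNT3 KO and 1.63 and 2.37 in the clones labelled GALNT3/T6 KO. It moved the same way as the first, and further, with means of -3.32 and 2.00. The second PLAGL1 probe gave -0.16 and -0.10 in GALNT3 KO, a mean of -0.13 where the brighter probe had 0.07. It gave 0.45 and 0.71 in the clones labelled GALNT3/T6 KO, a mean of 0.58 where the brighter probe had 1.18. For IGF2 the probes disagreed.

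The second IGF2 probe gave 0.11 and -0.01 in GALNT3 KO and -0.11 and -0.24 in the clones labelled GALNT3/T6 KO, where the brighter probe had risen on both arrays. This probe lies across an exon junction, at 2154402 to 2154754 on chromosome 11 of hg19, whereas the brighter probe lies at 2150394 to 2150453, near the end of the gene. The SGCE probe, at 94229030 to 94230011 on chromosome 7, likewise spans a junction, so both read spliced RNA. Both are on the minus strand, and they are shown 5′ to 3′ in the sense of the transcript as the sequences behind these values.
IGF2 second probe: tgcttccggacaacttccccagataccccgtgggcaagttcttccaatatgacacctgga
SGCE probe: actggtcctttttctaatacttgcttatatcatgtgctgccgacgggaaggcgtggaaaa

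**Figure D3:**
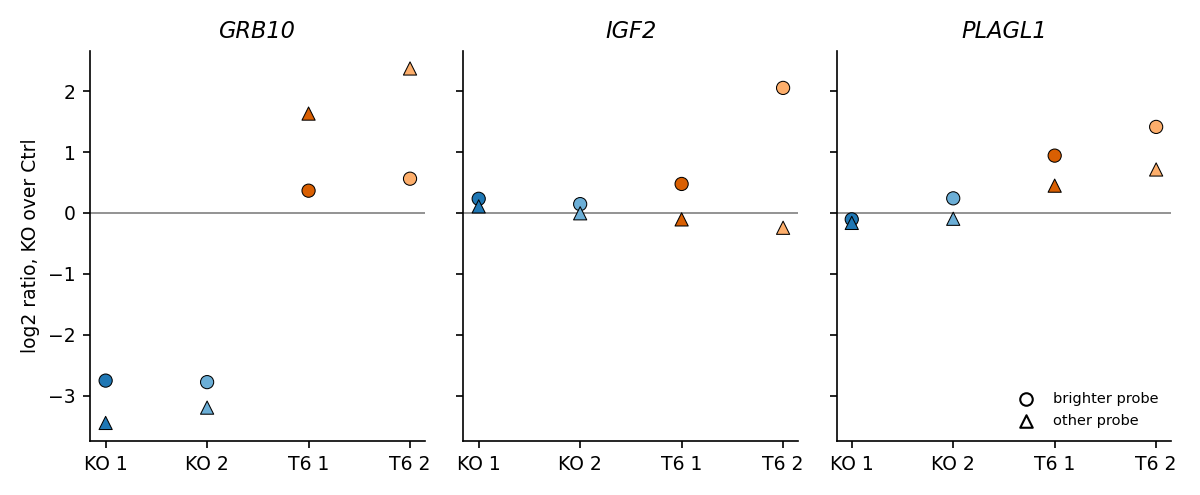
Log2 ratio of KO over Ctrl (vertical axis) on each array for the brighter probe (circles) and the other probe (triangles) of GRB10, IGF2 and PLAGL1. Both GRB10 probes lie below 0 in GALNT3 KO and above 0 in the other group, the PLAGL1 probes stand at 0.24 and -0.10 on GALNT3 KO replicate 2, and on GALNT3/T6 KO replicate 2 the IGF2 probes stand at 2.05 and -0.24.

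Other imprinted genes were then read to see whether the members moved with their neighbours. Of 49 further imprinted genes listed, 44 are on the array and 41 were tested. In GALNT3 KO 3 of them were called higher and 1 lower, 9.76% of the list, which is close to the 11% of all genes. BLCAP stood at 0.60 (adjusted p = 0.0308 from limma), ZNF331 at 0.69 (adjusted p = 0.0317), IGF2-AS at 0.49 (adjusted p = 0.0474) and L3MBTL1 at -0.62 (adjusted p = 0.026). Against Ctrl, 20 were called higher and 6 lower in the clones labelled GALNT3/T6 KO, 63.4% of the list against 47.8% of all genes. Those called higher include changes below 1.5-fold, such as TP73 at 0.28 and MESTIT1 at 0.30. On Agilent's log ratio 14 were called higher and 7 lower, where 4757 and 6290 of 27225 genes were. The largest called values were PHLDA2 at 4.40 (adjusted p = 9.22e-05 from limma), CPA4 at 3.65, NAP1L5 at -2.82, TFPI2 at 2.31, CRYBG1 at 1.49 and FAM50B at 1.33. NAP1L5 was not well above background in the KO channel on replicate 2, and CRYBG1 was well above background in Ctrl on 3 of the 4 arrays. Between the groups 10 were called higher and 4 lower in the clones labelled GALNT3/T6 KO, 34.1% of the list against 23.7% of all genes. PHLDA2 (4.23), CPA4 (3.38), NAP1L5 (-3.18), TFPI2 (2.40), INPP5F (1.68) and CRYBG1 (1.46) differed most among those called between the groups. The median of the list was 0.20 in GALNT3 KO and 0.28 in the clones labelled GALNT3/T6 KO, with 0.077 between the groups. With only the group's own arrays 16 were called in GALNT3 KO, where 4577 of 27193 genes were called higher and 4856 lower. In the clones labelled GALNT3/T6 KO 16 were called in that setting, where 3963 of 27219 genes were called higher and 4309 lower. With an array left out the counts moved in every comparison, as those of the whole array did.

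Listed genes with probes within 2000 kb of a member were set in order along the chromosome, a grouping made after their values were seen. Near CDKN1C on chromosome 11, PHLDA2, which limits placental growth, lay 44.8 kb away and stood at 0.17 in GALNT3 KO and 4.40 in the clones labelled GALNT3/T6 KO. SLC22A18, 30.6 kb away, stood at -0.33 and 0.84 (adjusted p = 0.0665 and 0.00179 from limma). The antisense RNA KCNQ1OT1, which silences this cluster on the paternal copy, stood at 0.37 and 0.98 (adjusted p = 0.222 and 0.0128). CDKN1C, PHLDA2, SLC22A18, KCNQ1 and KCNQ1OT1 were called higher in the clones labelled GALNT3/T6 KO, where 24.8% of all genes were. OSBPL5, in the same cluster, was not called, at -0.30 and -0.78. At the IGF2 end of that chromosome stretch H19 stood at 0.32 and 0.21, INS at -0.15 and -0.26 and ASCL2 at 0.44 and -0.21, none called. There IGF2-AS was called higher in both groups, at 0.49 and 0.46 (adjusted p = 0.0474 and 0.0181 from limma). KCNQ1OT1 and IGF2-AS overlap other genes, and how far the probes tell strands apart was not tested.

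Around NDN on chromosome 15, in the Prader-Willi region, MKRN3 (-0.78), SNURF (-0.80), SNRPN (-1.11) and UBE3A (-0.40) were called lower in the clones labelled GALNT3/T6 KO, as NDN was. NPAP1 (0.32) and ATP10A (0.92) were called higher, and MAGEL2, which lies next to NDN at 42.0 kb, was not called, at 0.25 (adjusted p = 0.0686 from limma). Of all genes 23.1% were called lower and 24.8% higher in this comparison. In GALNT3 KO none of these 7 genes was called, where 11% of all genes were. SNURF and SNRPN are parts of 1 transcript, so their values are not independent.

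Around MEST on chromosome 7, CPA4, a carboxypeptidase gene 182 kb away, rose to 3.65 in the clones labelled GALNT3/T6 KO (adjusted p = 0.000264 from limma) and stood at 0.27 in GALNT3 KO (adjusted p = 0.308). The antisense MESTIT1, at 16.1 kb, stood at 0.12 and 0.30 (adjusted p = 0.32 and 0.0328), where MEST had -4.16 and 2.73. COPG2, which runs against MEST from the other side with its probe 0.74 kb away, stood at -0.72 and -0.31 (adjusted p = 0.0353 and 0.0826 from limma). CEP41 stood at -0.32 and 0.53, CPA1 at -0.0094 and 0.36, TSGA13 at 0.34 and 0.22, and none of them was called against Ctrl. KLF14 stood at 0.34 and -0.19, with a difference of -0.53 between the groups (adjusted p = 0.0478).

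Beside SGCE and PEG10, TFPI2 stood at -0.10 in GALNT3 KO and 2.31 in the clones labelled GALNT3/T6 KO (adjusted p = 0.00335 from limma), and CASD1 at 0.45 and 0.70, both called (adjusted p = 0.047 and 0.0038). PPP1R9A (-0.05 and -0.03) and CALCR (0.09 and -0.17) were not called. Next to DLK1, MEG3 stood at 0.06 and 0.17, uncalled, and BEGAIN at 0.32 and -0.72 which lie -1.05 apart (limma, adjusted p = 0.00533). USP29, beside PEG3, stood at 0.18 and 0.06, and ZIM2 at 0.05 and 0.07, all uncalled as PEG3 was. PEG3-AS1 was not tested. On either side of GRB10 lay DDC (0.39 and 0.35, not called) and COBL (-0.07 and -0.36, the latter with an adjusted p of 0.0206 from limma). On either side of PLAGL1 lay LTV1 (-0.55 and -0.87, adjusted p = 0.0473 and 0.00367) and SF3B5 (-0.21 and -0.71, adjusted p = 0.185 and 0.00447), both lower in the clones labelled GALNT3/T6 KO where PLAGL1 was higher. KCNQ1DN (0.11 and 0.34) and SLC22A18AS (-0.02 and 0.34) lay nearest to CDKN1C.

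**Figure D4:**
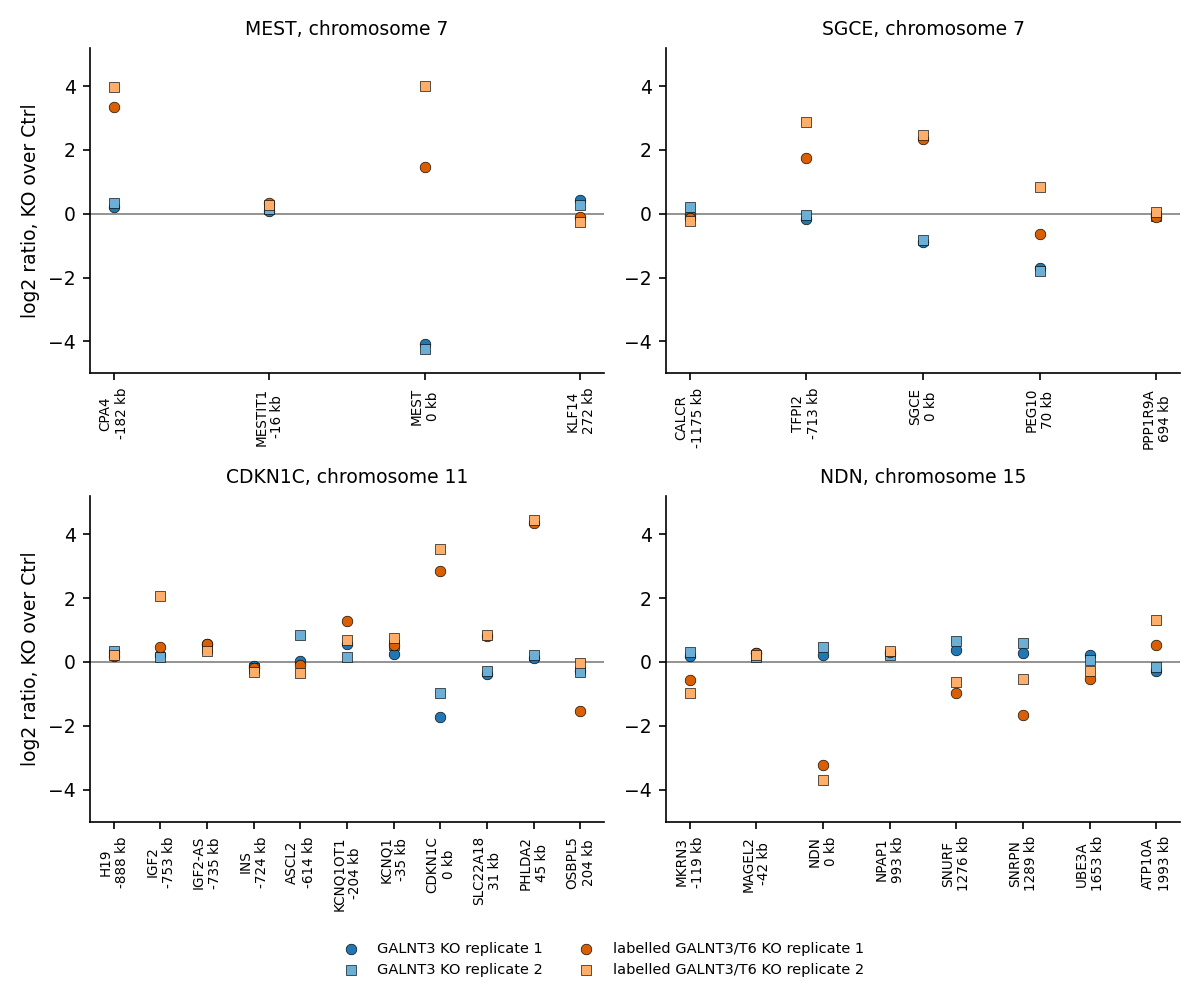
Log2 ratio of KO over Ctrl (vertical axis) on each array for listed imprinted genes with probes within 2000 kb of MEST, SGCE, CDKN1C and NDN, in order along the chromosome with the distance from the member's probe in kb (spacing not to scale). PHLDA2 at 4.40 and CPA4 at 3.65 stand highest beside CDKN1C and MEST. In the clones labelled GALNT3/T6 KO, NDN, MKRN3, SNURF, SNRPN and UBE3A lie below 0, and MAGEL2, NPAP1 and ATP10A above 0.

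The machinery that sets and keeps imprints was read next. Of 26 listed imprint control genes 24 are on the array, and all 24 were tested. In GALNT3 KO 0 were called higher and 2 lower, 8.33% of the list against 11% of all genes. These were TET1 at -0.78 (adjusted p = 0.0244 from limma), which oxidises methylated cytosine, and NLRP2 at -0.66 (adjusted p = 0.0341). In the clones labelled GALNT3/T6 KO 3 were called higher and 11 lower, 58.3% against 47.8% of all genes. The dioxygenases TET2 at -2.76 (adjusted p = 0.000221 from limma) and TET1 at -2.45, the glycosylase TDG at -1.77, the H3K9 methyltransferase SETDB1 at -1.66, its partner TRIM28 at -1.63 and NLRP2 at -1.54 fell the most. The methyltransferase DNMT3A (0.80), its cofactor DNMT3L (0.67) and ZNF445 (0.47) were called higher. The maintenance enzyme DNMT1 stood at -0.51 and -0.86 and was not called (limma, adjusted p = 0.319 and 0.092), and ZFP57 stood at 0.08 and 0.01. Between the groups 2 were called higher and 7 lower, 37.5% against 23.7% of all genes, among them TET2 (-2.70), TET1 (-1.67), TDG (-1.30), TRIM28 (-1.25), SETDB1 (-1.11) and NLRP2 (-0.88). The list's median was -0.13, -0.72 and -0.24 in these 3 comparisons. With only the group's own arrays 13 genes of the list were called in GALNT3 KO, where 4577 of 27193 genes were called higher and 4856 lower. With an array left out the counts in GALNT3 KO and between the groups moved, as those of the whole array did.

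Since IGF2 and GRB10 act on IGF signalling, the axis was read as well. Of 21 listed genes of the IGF axis 20 were tested. In GALNT3 KO 1 was called higher and 2 lower, 15% of the list against 11% of all genes. These were the growth hormone receptor GHR at 0.76 (adjusted p = 0.0234 from limma), the secreted protease inhibitor STC2 at -1.53 (adjusted p = 0.0113) and the receptor IGF1R at -1.39 (adjusted p = 0.0467). In the clones labelled GALNT3/T6 KO 8 were called higher and 3 lower, 55% against 47.8%. Those called higher include changes below 1.5-fold, such as IGFALS at 0.27. The binding proteins IGFBP7 (4.83), IGFBP3 (3.66) and IGFBP1 (1.75) rose, as did the protease PAPPA (1.92) and STC2 (1.79), while GHR fell (-1.81). The receptor IGF2R, which clears IGF2, stood at 0.37 and 0.12 and was not called. IGFBP7 was above background in Ctrl on only 2 of the arrays. Between the groups 5 were called higher and 2 lower, 35% against 23.7%, with IGFBP7 at 4.72, STC2 at 3.31, IGFBP3 at 2.87, GHR at -2.57, IGFBP1 at 1.93 and IGF1R at 1.79. The list's median was 0.14, 0.30 and 0.09. With only the group's own arrays 11 were called in GALNT3 KO, where 4577 of 27193 genes were called higher and 4856 lower. In the clones labelled GALNT3/T6 KO 7 were called in that setting, where 3963 of 27219 genes were called higher and 4309 lower. With an array left out the counts moved in every comparison, as those of the whole array did.

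The genes whose pattern lay nearest to MEST over the 4 arrays were found by Euclidean distance between log2 ratios, over 27186 genes. CBR1, a carbonyl reductase gene, was nearest at a distance of 1.85, with -4.40, -4.31, 1.33 and 2.18 on the 4 arrays. SLC16A3, a lactate transporter gene, followed at 2.16, with -3.05, -2.99, 2.75 and 3.37. RBMS1 (2.85), PREX1 (3.03) and FAM111A (3.20) came next. None of these 5 is on the list of imprinted genes used here. Among the members GRB10 ranked at 14 with a distance of 4.11 and CDKN1C at 21 with 4.27. SGCE ranked at 83, PEG10 at 106, IGF2 at 2053, PLAGL1 at 2133, PEG3 at 14500 and DLK1 at 16031. NDN, at 27114, was among the farthest from MEST of all genes. The ranks describe likeness on arrays that share Ctrl RNA and rest on 2 clones a group.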

How the data were processed

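RNA of 2 GALNT3 KO and 2 GALNT3/T6 KO clones was measured on 4 arrays, all on 1 slide. Spot intensities are as the authors took them from the scans by Agilent Feature Extraction (8.5.1.1 in the submitters' processing notes, 10.7.3.1 in the file headers), and deposited them with log10 ratios of red over green and a series table that differs from those by at most 0.005. The paper's methods mention a reverse-color label of Ctrl, so the direction here rests on the dyes in the labels. From the intensities, the background was corrected by normexp (offset 50) and the dyes by loess, leaving out 1639 of 45015 spots as controls, and spots with an outlier mark. A gene took its brightest probe well above background in a channel on both arrays of a group. limma 3.58.1 in R 4.3.3 fitted 1 model over 4 arrays, and Benjamini-Hochberg adjustment ran over all 27225 genes. No array of Ctrl alone was used here, so the spread of Ctrl is left out of the tests. Signals of single channels were scaled by Aquantile. The fit was tested on simulated data. The members, lists and tests were chosen with earlier results of these data known. Named were all members, up to 6 called genes of each list and comparison by size, the 5 genes nearest to MEST in pattern, the 3 nearest genes on each side of MEST and the nearest on each side of the other members, GALNT3 and GALNT6. Listed genes outside this rule were named after their values were seen. The alternatives were Agilent's log ratio, the deposited table, no background correction, median centring, the mean of all probes and no filter. Further ones were each group alone, a replicate block, each array left out and a t-test. Among 3 lists, 96 genes were read. In the array annotation 19171 names matched RefSeq symbols or synonyms.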

Additional observations from a re-analysis of the deposited data

Results flagged for a closer look

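For 6 members the change against Ctrl differed between the groups. MEST differed by 6.90 on the log2 scale, with both GALNT3 KO clones below Ctrl and both clones labelled GALNT3/T6 KO above it. It was picked for this difference, which was not tested. limma's test of the difference called CDKN1C (4.56, adjusted p = 0.00188), SGCE (3.26, adjusted p = 0.00042), GRB10 (3.23, adjusted p = 0.000464), PLAGL1 (1.11, adjusted p = 0.0263) and NDN (-3.80, adjusted p = 0.000808). Of all genes 23.7% were called between the groups. PLAGL1 lay on either side of Ctrl in GALNT3 KO, at -0.10 and 0.24. Both arrays of a group lay on 1 side of Ctrl for the other 5 genes. These were picked or called for a difference between the groups, so that adds no support.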

How the results depend on the processing

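MEST was picked for its directions, so their staying the same in all 12 alternatives for each comparison is no support. It lay at 5.64 to 8.15 between the groups. Several alternatives could not move its value against Ctrl. It has 1 probe, and a block or an array left out of the other group leaves the mean of a group as it is. In GALNT3 KO its value was -3.83 on Agilent's log ratio, -3.82 in the deposited table and -4.45 after median centring. Among the 9 tested members, values near 0 changed sign: PEG3 in GALNT3 KO without background correction (-0.010) and without replicate 1 (-0.028, against 0.058 without replicate 2); PEG3 in the clones labelled GALNT3/T6 KO on Agilent's log ratio and the deposited table (0.22); PEG10 there after median centring (-0.0041) and without replicate 2 (-0.64, against 0.83 without replicate 1); DLK1 there without background correction (-0.0099), after median centring (-0.014) and without replicate 1 (-0.034, against 0.040 without replicate 2); PLAGL1 in GALNT3 KO on Agilent's log ratio and the deposited table (-0.14), after median centring (-0.19), with the mean of all probes (-0.031) and without replicate 2 (-0.10, against 0.24 without replicate 1). In GALNT3 KO the count of called members was 2 on Agilent's log ratio, the deposited table and after median centring, and 0 to 5 with an array left out. The 41 other imprinted genes gave 0 calls on Agilent's log ratio and in the deposited table, 2 after median centring and with the mean of all probes, and 16 with only the group's own arrays. The 24 imprint control genes gave 1 on Agilent's log ratio and in the deposited table and 13 with own arrays, and the 20 IGF axis genes 1, 1 and 11. With an array left out these 3 lists ran from 0 to 16, 0 to 13 and 0 to 11. In the clones labelled GALNT3/T6 KO, own arrays alone gave 16 other imprinted genes and 7 IGF axis genes, and leaving out an array gave 16 to 23 and 7 to 12. Between the groups, leaving out an array gave 2 to 17 other imprinted, 1 to 12 imprint control and 4 to 11 IGF axis genes. A t-test was also run here, although the paper names no test for its arrays. After adjustment it gave 0 calls for every list and for the 9 members in every comparison. Of 27187 genes it called 0 in GALNT3 KO and 1, lower, in the clones labelled GALNT3/T6 KO. Between the groups it called 24 higher and 9 lower, so the 0 calls say little about these genes. The replicate numbers share only a number, with a correlation of -0.239 between the deviations of same-numbered arrays. A replicate block gave 1 called member and 0 genes of each list in GALNT3 KO, where only 30 of 27187 genes were called higher and 52 lower. It gave 7 IGF axis genes in the clones labelled GALNT3/T6 KO, where 4954 genes were called higher and 5136 lower. Crossed numbers, an alternative added after seeing the data, gave 4, 6 and 6 called members and 9 imprint control genes in GALNT3 KO. Over the whole array they gave 1471 higher and 2236 lower genes in GALNT3 KO, 6909 and 6632 in the clones labelled GALNT3/T6 KO. Between the groups they gave 3532 and 3777. A block for the slide was not run, since all arrays lay on 1 slide. The causes of these shifts were not tested. With 2 arrays a group, the number of arrays limits what can be called.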
